A study of Homo sapiens with 6 samples.

Results

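Transcripts of 10 integrin subunits that carry adhesion to the extracellular matrix were examined in LX-2, an established human line of hepatic stellate origin. The subunits are ITGA1, ITGA2, ITGA3, ITGA5, ITGA11, ITGAV, ITGB1, ITGB3, ITGB5 and ITGB8, and each of the 10 was found by its symbol among the 16907 gene symbols of the count files. Cells had received a control siRNA (siControl) or an siRNA directed against OGT (siOGT), each at 20 nM for 72 h. OGT is the enzyme that adds O-linked N-acetylglucosamine to proteins inside the cell. Both groups were the same line grown in medium with fetal bovine serum and treated with the same transfection reagent, and each group had 3 libraries described as biological replicates. Libraries of the same replicate number form a pair.

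Integrins are receptors made of 1 alpha and 1 beta chain, each of which spans the plasma membrane. The combination sets the ligand: ITGA1, ITGA2 and ITGA11 pair with ITGB1 to bind collagens, ITGA3 pairs with ITGB1 to bind laminins, and ITGA5 pairs with ITGB1 to bind the RGD sequence of fibronectin. ITGAV pairs with ITGB1, ITGB3, ITGB5 or ITGB8 to bind RGD sequences of fibronectin, vitronectin or the latent form of TGF-β. Inside the cell, the tails recruit talins and kindlins, which connect the receptor to actin. In myofibroblasts these receptors hold the cell on collagen and transmit contraction, and integrins with ITGAV can release active TGF-β from its latent complex.

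Libraries held between 25996770 and 27966801 expected counts. OGT was measured at 177, 137 and 121 CPM in siControl and at 39.9, 27.0 and 29.2 CPM in siOGT. It fell from 145 ± 28.9 to 32.0 ± 6.94 CPM (counts scaled to a common library size with TMM factors, mean ± SD, n = 3 libraries in each group), a log2 fold change of -2.18 (SE 0.073, adjusted p 2.712e-12 by edgeR). Of the 12 stellate cell and myofibroblast markers, VIM, COL1A1, COL1A2, THY1, TAGLN and PDGFRB had mean levels above 100 CPM in siControl, whereas LRAT, GFAP, DES and HAND2 had fewer than 10 counts in every library. ACTA2, which the study used as a myofibroblast marker, was low, with means of 6.55 CPM in siControl and 7.58 CPM in siOGT. RELN had means of 12.5 and 21.3 CPM. Summed markers of hepatocytes lay between 3.55 and 4.42 CPM in siControl and between 3.56 and 3.85 CPM in siOGT, and those of endothelial cells lay between 3.29 and 7.69 CPM and between 3.06 and 5.80 CPM. Summed leukocyte markers lay between 131 and 159 CPM in siControl and between 174 and 212 CPM in siOGT. Nearly all of this was CD68, since PTPRC, the general leukocyte marker, had means of 0.536 and 0.520 CPM. Summed epithelial markers lay between 88.7 and 126 CPM in siControl and between 93.1 and 127 CPM in siOGT, most of it SOX9. The part of these markers in the results below was not tested. In RNA from whole cultures, fewer cells of a type and less RNA per cell cannot be told apart.

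The levels of the subunits were compared first, per kilobase of merged exons so that genes of different length could be set side by side. ITGA3, ITGA5 and ITGB1 stood far above the other 7 subunits. In siControl, ITGA3 reached 87.1, 79.9 and 84.8 CPM per kilobase, ITGA5 reached 70.8, 66.2 and 79.9, and ITGB1 reached 72.2, 68.4 and 69.6. The ranges of ITGA5 and ITGB1 overlapped, so these neighbours in the order could not be told apart. The lowest siControl library of ITGA3 (79.89) was barely above the highest of ITGA5 (79.87). With library totals in place of TMM factors these ranges overlapped as well. Next came ITGB5 with a mean of 7.55 CPM per kilobase, ITGA2 with 4.32, ITGA11 with 3.03 and ITGA1 with 1.91. ITGB3 had a mean of 1.78 CPM per kilobase, ITGAV of 1.61 and ITGB8 of 0.981. Among these less abundant subunits, the ranges overlapped between ITGA2 and ITGA11, and ITGA1, ITGB3 and ITGAV all overlapped each other. The order depends on the length used, since GENCODE lists many transcripts for some subunits: per kilobase of the canonical transcript, ITGB1 came first with 273 CPM per kilobase, before ITGA3 with 168 and ITGA5 with 126, and ITGAV, with 4.41, came before ITGA2. ITGA3, ITGA5 and ITGB1 were the 3 most abundant subunits with each length.

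In edgeR with the replicate number as a block, 5 of the 10 subunits differed between siOGT and siControl, in opposite directions. ITGA5, the alpha chain of the classical fibronectin receptor, rose 1.26-fold. ITGA1, a collagen receptor chain, and the beta chains ITGB3, ITGB5 and ITGB8, which can pair with ITGAV, fell by between 13.9% and 33.7%. No call was made for ITGB1, which can also pair with ITGAV, or for ITGA3, ITGAV, ITGA2 or ITGA11. A call required an adjusted p of 0.05 or less in the edgeR test with the replicate number as a block. Of all 14853 genes tested, 25.4% were called, 12.7% higher and 12.7% lower in siOGT, so 1 of 10 subunits called higher and 4 of 10 called lower stand against 12.7% in each direction. The median log2 fold change was -0.13 over the 10 subunits and 0.0068 over all genes tested. Within all 3 pairs, 1 subunit was higher and 5 were lower in siOGT, against 27.4% and 26.6% of all genes. With DESeq2 and the block, 1 subunit was called higher and 2 lower, where 19.2% of all genes were called. Without replicate 1, edgeR called 0 subunits higher and 2 lower, and 12.5% of all genes. None of the 5 calls was made when the block was left out, where edgeR called 0.875% of all genes. Of the 10 subunits, 3 had an unadjusted p under 0.05 in the fit without the block. No share of all genes was taken at that threshold, so this count is not read as a result about the subunits.

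**Figure D1:**
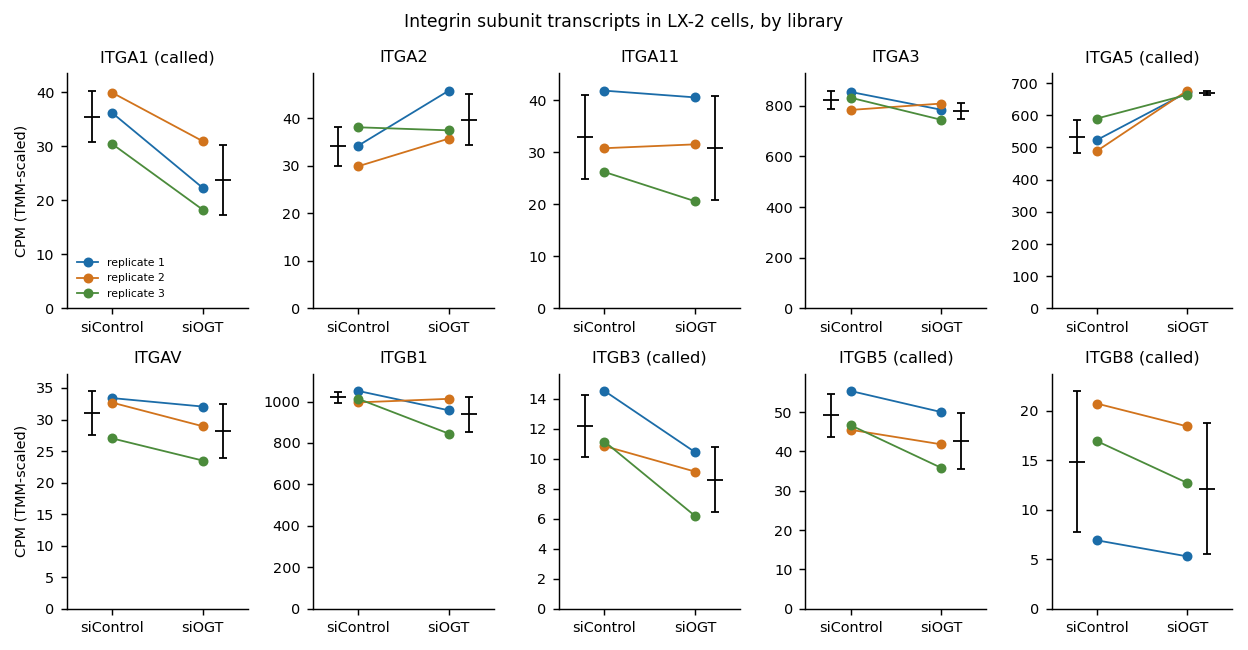
TMM-scaled CPM (y axis, from 0) of each integrin subunit in the 3 siControl and 3 siOGT libraries, with lines joining libraries of a replicate number and black bars giving mean ± SD. The siOGT libraries of ITGA5 lie between 664 and 676 CPM, above every siControl library, and the ITGB3 lines all slope down.

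ITGA5 (chromosome 12, 54395261 to 54419266, minus strand, hg38) was measured at 523, 489 and 590 CPM in siControl and at 671, 676 and 664 CPM in siOGT. Every siOGT library was above every siControl library, and the siOGT libraries lay closer together than the siControl libraries, with SDs of 6.30 and 51.3 CPM. Over all genes tested, siOGT lay above siControl without overlap in 12.1%. The log2 fold change of ITGA5 was 0.33 (95% confidence interval 0.18 to 0.48, SE 0.071, adjusted p 0.00250 by edgeR), and the log2 ratios within the pairs were 0.36, 0.47 and 0.17. The call was not made without replicate 1 (adjusted p 0.0593 by edgeR) or without the replicate block (0.120).

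ITGA1 (chromosome 5, 52787916 to 52959209, plus strand) showed the opposite change and had the lowest log2 fold change of the 10 subunits. It was measured at 36.2, 39.9 and 30.4 CPM in siControl and at 22.3, 31.0 and 18.3 CPM in siOGT. The groups overlapped slightly, as siOGT 2 was just above siControl 3, but within each pair siOGT was lower, with log2 ratios of -0.69, -0.37 and -0.73. The log2 fold change came to -0.59 (95% confidence interval -0.77 to -0.42, SE 0.085, adjusted p 8.014e-05 by edgeR). The call held under 8 of 9 alternatives and was not made without the replicate block (0.153). On the same strand, exons of ITGA1 overlap those of the pseudogene RPL17P21 over 571 bases (3.08% of its exonic length), which was not analysed here, and those of PELO, a ribosome rescue factor, over 499 bases (2.69%). How reads in these stretches were divided was not tested. PELO had a log2 fold change of -0.04 (adjusted p 0.717 by edgeR).

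ITGA5 and ITGA1 are the called alpha chains, with changes of opposite sign, and the 250 bases before their annotated starts are shown for comparison (RefSeq, GRCh38.p14, 5′ to 3′ on the strand of the gene). Capitals mark matches to motifs of TEAD factors (CATTCC), of GC-box binding factors such as SP1 (GGGCGG) and of AP-1 (TGANTCA), each searched on both strands. The ITGA5 sequence is chr12:54419267-54419516 on the minus strand, and the ITGA1 sequence is chr5:52787666-52787915 on the plus strand.
ITGA5: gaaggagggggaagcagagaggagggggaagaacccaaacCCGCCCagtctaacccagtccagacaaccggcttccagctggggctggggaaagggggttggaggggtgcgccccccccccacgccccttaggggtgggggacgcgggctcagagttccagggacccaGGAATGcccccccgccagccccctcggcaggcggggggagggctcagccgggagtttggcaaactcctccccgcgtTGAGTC
ITGA1: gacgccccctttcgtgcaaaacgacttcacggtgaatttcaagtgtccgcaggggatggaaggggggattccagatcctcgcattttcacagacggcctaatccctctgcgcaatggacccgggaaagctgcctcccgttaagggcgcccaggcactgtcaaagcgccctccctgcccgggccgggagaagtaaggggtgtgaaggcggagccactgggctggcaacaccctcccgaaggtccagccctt
The ITGA5 sequence held a GC box 210 bases, a TEAD motif 82 bases and an AP-1 motif 6 bases upstream of the start, the last of which runs 1 base into the transcript. No match to any of these motifs was found in the ITGA1 window. RefSeq windows reaching from 250 bases before to 50 bases after a start were at hand for 8 of the 10 subunits (12 windows). Of these, only windows of ITGA5 and ITGB1 held the TEAD motif and only that of ITGA5 the AP-1 motif. GC boxes also lay in windows of ITGB5 and ITGB8, called lower, and of ITGA2 and ITGB1, not called. Windows of ITGAV and ITGA11, not called, held no match, as with ITGA1. Whether motifs go with the direction of change was not tested. Among all 35116 windows of this length, 14.0% held the TEAD motif, 45.0% the GC box and 7.71% the AP-1 motif. These matches describe letters and not binding.

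ITGB3 (chromosome 17, 47253827 to 47313743, plus strand) is the beta chain of the vitronectin receptor. It was measured at 14.5, 10.8 and 11.1 CPM in siControl and at 10.4, 9.14 and 6.19 CPM in siOGT. All 3 siOGT libraries lay below all 3 siControl libraries, which was found for 11.8% of all genes tested. The log2 fold change was -0.52 (95% confidence interval -0.77 to -0.26, SE 0.12, adjusted p 0.00434 by edgeR), and the pairs gave -0.47, -0.24 and -0.84. With 166 to 388 counts per library ITGB3 was among the least abundant subunits. Without the block the adjusted p-value was 0.239. Over 33.2% of its exonic bases ITGB3 overlaps another gene model on the same strand, between which reads cannot be assigned with certainty.

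ITGB8 (chromosome 7, 20330702 to 20415754, plus strand), a beta chain found in the receptor that activates latent TGF-β, varied more between replicates than between groups. Replicate 1 had 6.92 CPM in siControl and 5.29 CPM in siOGT. The other libraries had 20.7 and 17.0 CPM in siControl and 18.4 and 12.7 CPM in siOGT. Both libraries of replicate 1 were thus low, and the groups overlapped widely. Within the pairs the log2 ratios were -0.38, -0.17 and -0.41, and the log2 fold change was -0.31 (95% confidence interval -0.52 to -0.10, SE 0.10, adjusted p 0.0293 by edgeR). The call was not made without replicate 1 (adjusted p 0.119 by edgeR), without replicate 3 (0.134), with DESeq2 (0.138) or without the block (0.771).

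ITGB5 (chromosome 3, 124761948 to 124901418, minus strand), which forms another vitronectin receptor with ITGAV, was measured at 55.4, 45.5 and 46.7 CPM in siControl and at 50.01, 41.8 and 35.8 CPM in siOGT. The groups overlapped, although siOGT was lower within each pair, with log2 ratios of -0.15, -0.12 and -0.38. The log2 fold change was -0.22 (95% confidence interval -0.37 to -0.06, SE 0.074, adjusted p 0.0397 by edgeR). This was the weakest of the 5 calls. It was not made without replicate 1 (adjusted p 0.103 by edgeR), without replicate 3 (0.179), with library totals in place of TMM factors (0.0649), with DESeq2 (0.114) or without the block (0.447).

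**Figure D2:**
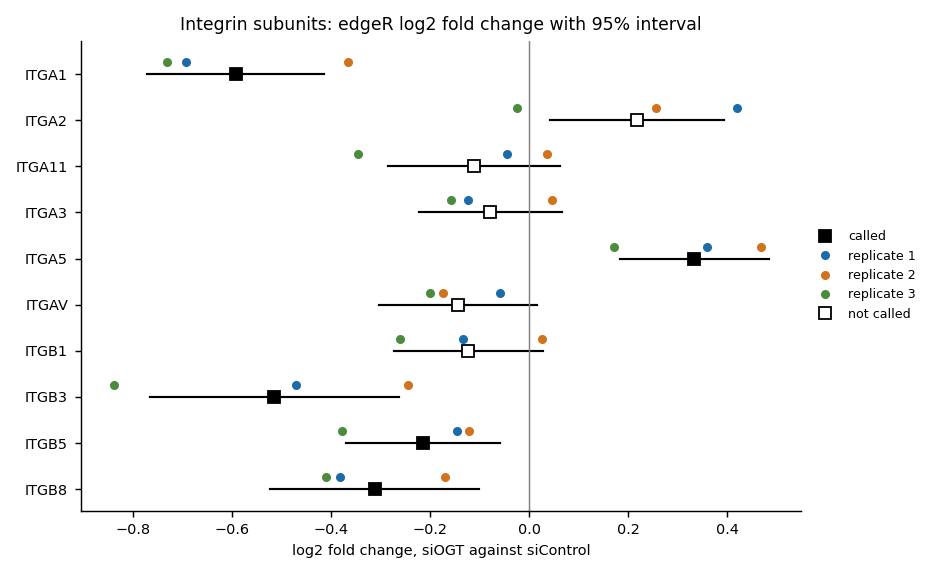
Log2 fold change of siOGT against siControl (x axis) for each integrin subunit, with squares giving the edgeR estimate (filled where called), lines its 95% confidence interval and coloured points the log2 ratio within each pair. ITGA5 lies at 0.33 with all pairs above 0, whereas ITGA1, ITGB3, ITGB5, ITGB8 and ITGAV, the last not called, have all pairs below 0.

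The shared beta chain and the other alpha chains were not called. ITGB1 (chromosome 10, 32887273 to 33005792, minus strand), the partner of most alpha chains, was measured at 1051, 996 and 1013 CPM in siControl and at 958, 1013 and 845 CPM in siOGT. The groups overlapped, and the pairs disagreed in sign, with log2 ratios of -0.13, 0.025 and -0.26. Its log2 fold change was -0.12 (95% confidence interval -0.27 to 0.03, adjusted p 0.224 by edgeR), so a fall by more than 0.27 or a rise by more than 0.03 on the log2 scale lay outside the interval. ITGA3 (chromosome 17, 50055968 to 50090481, plus strand), the laminin receptor chain, had 854, 783 and 831 CPM in siControl and 784, 808 and 744 CPM in siOGT. Its log2 fold change was -0.08 (95% confidence interval -0.22 to 0.07, adjusted p 0.440 by edgeR). These values place both abundant chains within narrow intervals around a small difference.

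ITGAV (chromosome 2, 186590010 to 186680901, plus strand), the alpha partner of ITGB3, ITGB5 and ITGB8, had 33.4, 32.7 and 27.0 CPM in siControl and 32.1, 28.9 and 23.5 CPM in siOGT. It was lower within all 3 pairs, as were 26.6% of all genes tested, and its log2 fold change was -0.14 (95% confidence interval -0.30 to 0.02, adjusted p 0.178 by edgeR). ITGA2 (chromosome 5, 52989340 to 53094779, plus strand), a collagen receptor chain whose gene lies next to ITGA1, had 34.3, 29.9 and 38.1 CPM in siControl and 45.8, 35.7 and 37.5 CPM in siOGT. Replicates 1 and 2 were higher in siOGT and replicate 3 was level, with log2 ratios of 0.42, 0.26 and -0.02. The log2 fold change of ITGA2 was 0.22 (95% confidence interval 0.04 to 0.39, SE 0.083, adjusted p 0.0656 by edgeR). The interval, unlike the adjusted p, takes no account of the number of genes tested. A call for ITGA2 was made when replicate 3 was left out (0.33, adjusted p 0.00847 by edgeR), with library totals (0.0487) and without a filter on low counts (0.0356). ITGA11 (chromosome 15, 68296532 to 68432163, minus strand), a collagen receptor chain of fibroblasts, had 41.9, 30.8 and 26.2 CPM in siControl and 40.6, 31.5 and 20.6 CPM in siOGT. The spread between replicates of ITGA11 exceeded the difference between groups, and its log2 fold change was -0.11 (adjusted p 0.353 by edgeR).

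Ratios of counts between subunits of the same library do not depend on how libraries are scaled, and they show how the make-up of the receptors' transcripts differed. With 3 pairs an exact permutation test of signs could not reach the threshold, so these are descriptions. The ratio of ITGA5 to ITGB1 was 0.498, 0.491 and 0.582 in siControl and 0.701, 0.668 and 0.786 in siOGT. The 3 log2 changes within pairs, 0.49, 0.44 and 0.43, differed little from each other. The ratio of ITGA1 to ITGB1 moved the other way, by -0.56, -0.39 and -0.47 on the log2 scale. Among collagen receptor chains, the ratio of ITGA2 to ITGA1 was 0.947, 0.750 and 1.25 in siControl and 2.05, 1.16 and 2.05 in siOGT, with log2 changes of 1.12, 0.62 and 0.71. The ratio of ITGA11 to ITGA1 also increased within each pair, by 0.65, 0.40 and 0.39 on the log2 scale. Relative to ITGA1, both other collagen-binding alpha chains were thus higher in siOGT within 3 of 3 pairs. Both ratios share ITGA1, which itself fell within 3 of 3 pairs, so they are not separate results. ITGA2 and ITGA11 were not called.

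Relative to ITGAV, their common partner, the 3 beta chains gave smaller differences. The log2 change of the ratio of ITGB3 to ITGAV was -0.42, -0.07 and -0.65 in the pairs, that of ITGB8 to ITGAV was -0.33, 0.0048 and -0.21, and that of ITGB5 to ITGAV was -0.09, 0.05 and -0.18. Replicate 2 was close to 0 in each case, and ITGB3 was the chain with the largest mean change relative to ITGAV (-0.38 ± 0.29, SD, n = 3 pairs).

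Each subunit was also expressed as a share of all alpha or all beta subunits per kilobase, over the 17 alpha and 8 beta subunits in the files. ITGA3 made up 45.6%, 44.8% and 42.3% of the alpha pool in siControl and 37.8%, 39.3% and 37.7% in siOGT. ITGA5 made up 37.0%, 37.1% and 39.8% in siControl and 42.9%, 43.7% and 44.6% in siOGT. The groups did not overlap for either subunit. Shares of 1 pool depend on each other, so these 2 separations are not independent results. ITGA3 itself was not called (log2 fold change -0.08, adjusted p 0.440 by edgeR). ITGA5 held a larger share than ITGA3 in every siOGT library, whereas ITGA3 held the larger share in every siControl library. This crossing depended on the length: with the longest transcript ITGA3 held the larger share in every library of both groups. With canonical transcript lengths the share of ITGA5 was 36.9% ± 1.72 and 43.3% ± 0.775 and that of ITGA3 49.5% ± 1.72 and 43.7% ± 0.765 (SD, n = 3 each). ITGA1 made up 1.01% ± 0.194 of the alpha pool in siControl and 0.618% ± 0.159 in siOGT. In the beta pool, ITGB1 made up 81.3% ± 1.18 in siControl and 82.6% ± 0.889 in siOGT. Its share was higher in siOGT within 3 of 3 pairs while the ranges of the groups overlapped, and this was not tested.

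**Figure D3:**
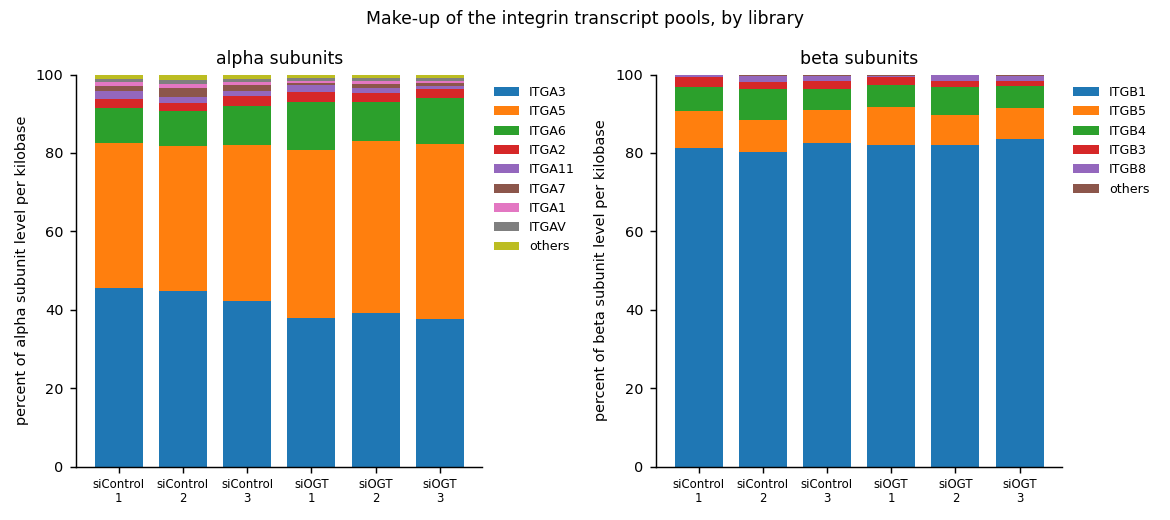
Share of each alpha subunit (left) and beta subunit (right) in the summed level per kilobase of merged exons (y axis, percent) in each of the 6 libraries (x axis). ITGA5 takes between 37.0% and 39.8% of the alpha pool in siControl and between 42.9% and 44.6% in siOGT, and ITGB1 takes most of the beta pool in all libraries.

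The other integrin subunits were then described. Of 16 listed, 15 were in the files and 10 passed the filter on low counts, of which 1 was called higher and 3 lower, beside 12.7% of all genes in each direction. ITGA6, a laminin receptor chain, was measured at 114, 105 and 134 CPM in siControl and at 172, 142 and 156 CPM in siOGT. All siOGT libraries were above all siControl libraries, and the log2 fold change was 0.42 (adjusted p 5.048e-04 by edgeR, 0.112 without the block). ITGA7, a laminin receptor chain best known from muscle, fell from 20.2, 34.0 and 29.7 CPM to 8.33, 19.8 and 13.5 CPM, a log2 fold change of -1.05 (adjusted p 1.482e-06 by edgeR, 0.117 without the block). ITGA2B, the platelet integrin chain, was low and fell by 1.02 on the log2 scale (adjusted p 6.246e-04 by edgeR, 0.0511 without the block). ITGB4, the partner of ITGA6 in hemidesmosomes, had a log2 fold change of -0.20 (adjusted p 0.0443 by edgeR), a call made under 3 of 9 alternatives. Among laminin-binding chains, ITGA6 rose, ITGA7 fell and ITGA3 was not called, and the differences between these effects were not tested. The leukocyte chains ITGAL and ITGAM had at most 3 counts in any library, and ITGB2, the beta chain shared by leukocyte integrins, had 29 to 50.

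Genes whose products bind integrins or connect them to the cell were examined from 7 lists, including the other integrin subunits. Of 106 genes tested in all, 5 were called higher and 40 lower in siOGT, against 12.7% of all genes in each direction, and the median log2 fold change was -0.15 (0.0068 over all genes tested). Without the replicate block 1 of them was called, CD82.

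Among 30 integrin ligands tested, 17 were called lower and 1 higher, against 12.7% of all genes in each direction, and the median log2 fold change was -0.30. COL4A1 and COL4A2, the chains of the basement membrane collagen IV that ITGA1 binds, fell by 0.30 and 0.43 on the log2 scale (adjusted p 0.00419 and 3.038e-04 by edgeR), and the call of COL4A1 was not made without replicate 1 (0.0529). COL1A1, a chain of the fibrillar collagen I, fell by 0.39 (adjusted p 0.00111 by edgeR, 0.0893 without replicate 1). FN1, the fibronectin bound by ITGA5, had 2175, 1652 and 1710 CPM in siControl and 1597, 1798 and 1185 CPM in siOGT. Its pairs disagreed in sign, with log2 ratios of -0.45, 0.12 and -0.53, and its call (log2 fold change -0.28, adjusted p 0.0377 by edgeR) was not made under 6 of 9 alternatives. VTN, the vitronectin bound by integrins with ITGAV, fell from 6.10, 8.68 and 4.62 CPM to 1.70, 3.86 and 2.50 CPM, a log2 fold change of -1.28 (adjusted p 7.989e-05 by edgeR). COL6A3, a chain of the pericellular collagen VI, and POSTN, a matrix protein of fibrotic tissue, were also low and fell by 1.38 and 1.03 on the log2 scale (adjusted p 3.217e-04 and 1.165e-04 by edgeR). LAMB3, a laminin chain, was the ligand called higher (0.28, adjusted p 0.0159 by edgeR, 0.269 without replicate 1). Hence ITGA5 was higher in every siOGT library while its ligand FN1 was lower in 2 of 3 pairs, and ITGA1 and COL1A1 were both lower in 3 of 3 pairs. Of all genes tested, 12.1% lay above siControl in siOGT without overlap and 26.6% were lower in all 3 pairs. A relation between receptor and ligand was not tested.

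**Figure D4:**
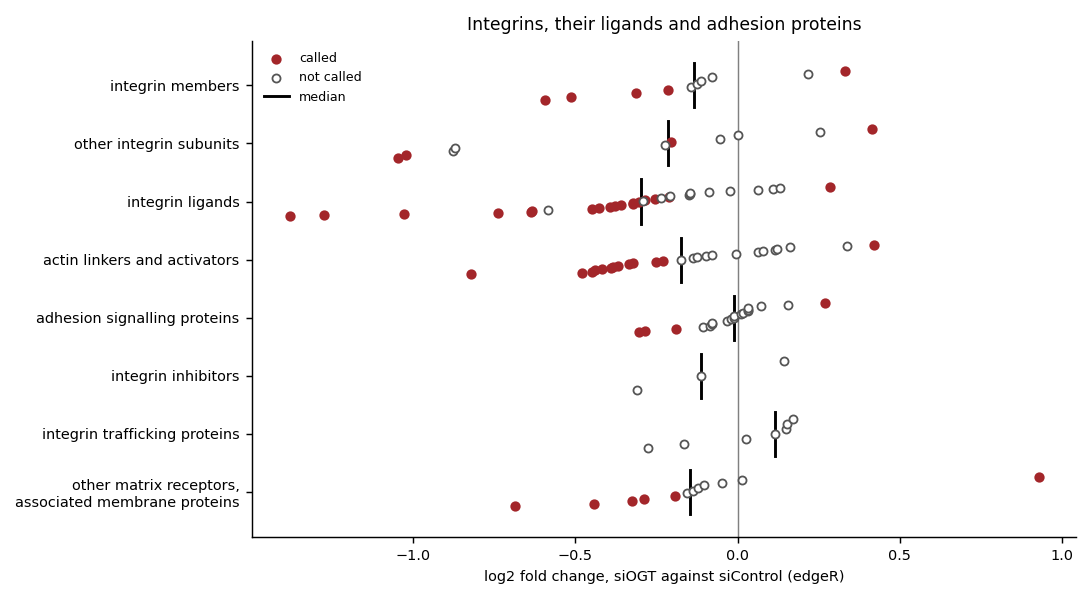
Log2 fold change of siOGT against siControl (x axis) of each gene tested in the integrin group and in 7 lists of related genes, with filled points for called genes and a bar at each median. Medians lie at -0.30 for ligands and -0.17 for actin linkers, and at -0.01 for signalling proteins.

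Among 25 actin linkers and activators, 12 were called lower and 1 higher, with 12.7% of all genes called in each direction, and the median log2 fold change was -0.17. FERMT2 and TLN1, a kindlin and a talin gene whose products activate integrins, changed in opposite directions. FERMT2, kindlin-2, rose from 238, 191 and 211 CPM to 311, 262 and 283 CPM (log2 fold change 0.42, adjusted p 1.426e-04 by edgeR), and the groups did not overlap. TLN1, talin-1, fell by 0.25 (adjusted p 0.00978 by edgeR, 0.193 without replicate 1). TLN2, talin-2, had means of 124 CPM in siControl and 130 CPM in siOGT and was not called (log2 fold change 0.06, adjusted p 0.581 by edgeR). FERMT1, kindlin-1 of epithelia, fell by 0.82 from a low level (adjusted p 6.525e-05 by edgeR). VCL, the vinculin that reinforces the bond to actin, fell by 0.37 (6.313e-04), and ILK, a scaffold on the tail of ITGB1, by 0.23 (0.0203, and 0.351 without replicate 1). TNS2, a tensin, and KANK1, an organizer of the adhesion rim, fell by 0.45 (1.059e-04) and 0.48 (0.0226), and the call of KANK1 was not made under 4 of 9 alternatives. These values in parentheses are adjusted p from edgeR with the block.

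Of 19 signalling proteins tested, 1 was called higher and 3 lower, which is near the 25.4% called in either direction over all genes, and the median log2 fold change was -0.01. PTK2, the focal adhesion kinase, was at 105, 97.9 and 101 CPM in siControl and at 102, 105 and 94.1 CPM in siOGT (log2 fold change -0.01, adjusted p 0.918 by edgeR). PXN, the paxillin scaffold, likewise had a log2 fold change of -0.01 (0.920). The adaptor CRK rose by 0.27 (adjusted p 0.00897 by edgeR), whereas NEDD9, DOCK1 and PAK1, which act downstream in cell spreading and migration, fell by 0.30, 0.29 and 0.19 (0.00437, 0.00419 and 0.0354). The calls of CRK and PAK1 were not made under 3 and 4 of 9 alternatives. None of 3 integrin inhibitors and none of 7 trafficking proteins was called by edgeR with the block, the smallest adjusted p being 0.0651 for DOK1 and 0.0767 for RAB4A. At an unadjusted p under 0.05 there were 1 inhibitor and 5 trafficking proteins, and DESeq2 with the block called 0 of either list. No share of all genes was taken at the unadjusted threshold, so these counts are not read as results about the lists. In edgeR with the block that share is at least the 25.4% called, as an adjusted p is never below its unadjusted p.

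Among 12 other matrix receptors and membrane proteins that associate with integrins, 1 was called higher and 5 lower, beside 12.7% of all genes in each direction. SLC3A2, the CD98 heavy chain that binds beta integrin tails and carries amino acid transporters, rose from 205, 129 and 215 CPM to 401, 233 and 418 CPM, a log2 fold change of 0.93 (adjusted p 6.146e-08 by edgeR, 0.0940 without the block). CD82, a tetraspanin that associates with integrins, fell from 86.9, 96.6 and 74.5 CPM to 52.2, 58.7 and 48.9 CPM (log2 fold change -0.69, adjusted p 2.245e-06 by edgeR, 0.0436 without the block). The syndecans SDC4, a co-receptor for fibronectin, and SDC1 fell by 0.44 and 0.32 (8.014e-05 and 0.00370). DDR2, a collagen receptor that is not an integrin, had a log2 fold change of -0.19 (adjusted p 0.0450 by edgeR), a call not made under 5 of 9 alternatives.

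The dependence of the 10 subunits on processing was summarized by sign and call. Over 90 combinations of a subunit with an alternative, no log2 fold change reversed in sign, 74 kept their call or lack of it, 13 lost a call and 3 gained a call. Over all genes tested, the share called was 24.2% without a filter, 27.9% with filterByExpr, 24.9% with median-ratio size factors, 25.1% with library totals, 19.2% with DESeq2, and 12.5%, 22.5% and 23.8% without replicates 1, 2 and 3. ITGA1 and ITGB3 kept their calls under all alternatives other than the fit without the replicate block.

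**Figure D5:**
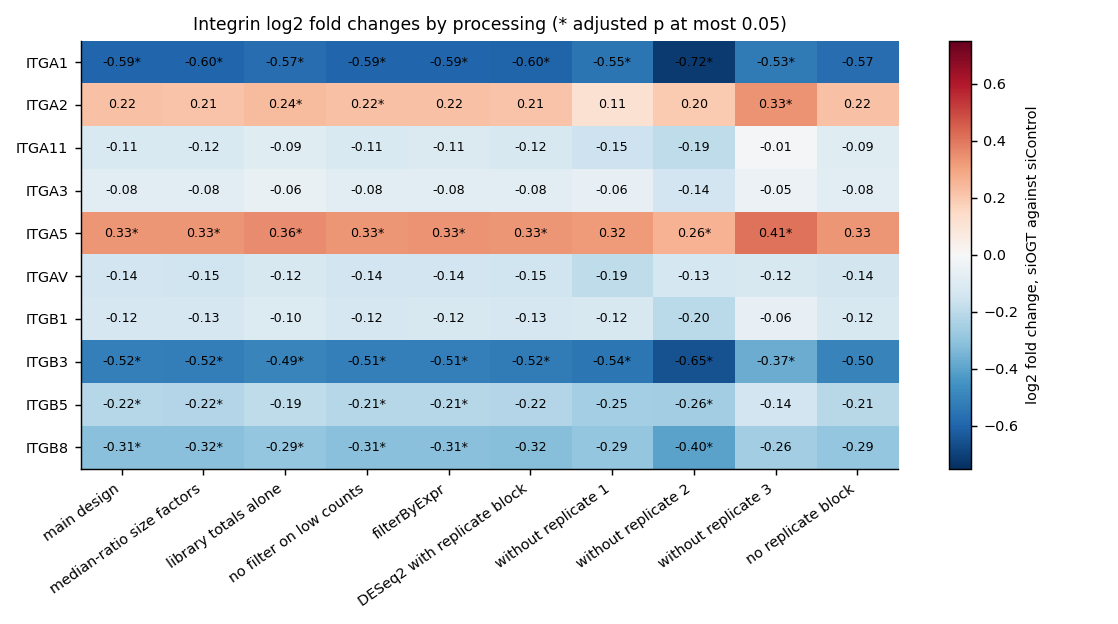
Log2 fold change of siOGT against siControl (colour and printed value) for each integrin subunit (rows) under the main design and 9 alternatives (columns), with asterisks for an adjusted p of 0.05 or less. ITGA1 and ITGB3 carry an asterisk in every column other than the fit without the replicate block, and no asterisk stands in that column.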

How the data were processed

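Per the study's methods and the labels, polyadenylated RNA was sequenced paired-end, aligned to hg38 with Bowtie2 2.3.5.1 and counted with RSEM 1.3.1 in a strand-specific mode. The deposited values are expected counts from RSEM, estimated counts that the authors did not normalize. Reads shared by related genes are divided by estimation. The authors' own table of fold changes and p-values from DESeq2 1.36.0 was not used. Expected counts were rounded, 2054 genes whose counts summed to under 10 were left out, and 14853 were fitted with TMM factors (0.979 to 1.02). Tests were two-sided quasi-likelihood F tests (edgeR 4.0.16, R 4.3.3) with replicate number as the block, as the study paired samples. Same-numbered libraries deviated together from the group means (correlation 0.69, 0.53 and 0.33 over 12373 genes). Adjustment was by Benjamini-Hochberg over all genes tested. Confidence intervals came from the F statistic and pair log2 ratios used a prior count of 2. Replicates differed by more than counting error (chi-square per degree of freedom at least 19.0 in each pair of a group).

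The alternatives were no block, median-ratio size factors, library totals, no filter, filterByExpr, DESeq2 1.42.0 with the block and leaving out each pair. In simulated data with 14718 genes tested, 100 genes were changed by 0.5 and 100 by 1 on the log2 scale. Of these, edgeR recovered 91% and 98%, and 5.5% of its calls were false. The counts were drawn from a negative binomial model with the replicate block and with dispersions fitted to these data. Changed genes had a mean of at least 1 CPM. The 5.5% thus holds for that model and is not the share of false calls in these data. The members and lists were chosen with earlier results of these data known. Named genes were the 10 subunits, OGT, 10 fixed adhesion genes and, per list, up to 3 called genes in each direction whose mean reached 1 CPM and whose pairs shared a sign. CD68, PTPRC, SOX9, PELO, COL4A1, COL4A2, ITGB2, ITGAL, ITGAM, TLN2, DOK1, RAB4A and the stellate markers were named after their values were seen. GENCODE 44 (hg38) gave coordinates and exon lengths and held 15906 of 16907 symbols. The authors mapped with a GENCODE annotation whose release may differ, so lengths may too.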

Additional observations from a re-analysis of the deposited data

How the results depend on the processing

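Pairing mattered most. Without the replicate block 0 subunits were called higher and 0 lower, with adjusted p-values of 0.153 for ITGA1 (log2 fold change -0.57), 0.120 for ITGA5 (0.33), 0.239 for ITGB3 (-0.50), 0.447 for ITGB5 (-0.21) and 0.771 for ITGB8 (-0.29), and edgeR called 0 listed pathway genes higher and 1 lower, and 71 and 59 genes over the whole table. In that fit 3 of the 10 subunits and 29 of the 106 listed genes had an unadjusted p under 0.05. The share of all genes at this unadjusted threshold was not taken, so these counts were not set against a background and are not read as results. With DESeq2 and the block, 2 subunits were called lower, ITGB5 (-0.22) and ITGB8 (-0.32) losing their calls, and 1117 genes were called higher. With library totals 2 subunits were called higher, ITGA2 (0.24) gaining and ITGB5 (-0.19) losing a call, and without a filter 2, with ITGA2 at 0.22. For these differences the cause was not tested.

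Leaving out each replicate in turn gave from 0 to 2 subunits called higher and from 2 to 4 lower, from 3 to 7 listed genes higher, and from 858 to 1652 genes higher and from 945 to 1787 lower over the whole table. The log2 fold change ranged from 0.11 to 0.33 for ITGA2, from 0.26 to 0.41 for ITGA5, from -0.26 to -0.14 for ITGB5 and from -0.40 to -0.26 for ITGB8. Without replicate 1 or replicate 3, 2 subunits were called lower. OGT stayed called under all 9 alternatives, from -2.25 to -2.11.

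The order of levels depends on length: 4 subunits kept their place with the longest transcript and 3 with the canonical transcript, an alternative chosen after the data were seen. In siControl the share of ITGA3 in the alpha pool was then 49.7% and 49.5% against 44.2%, that of ITGA5 with the longest transcript 35.3% against 37.98%, and that of ITGB1 in the beta pool 89.4% and 92.6% against 81.3%. With the least abundant subunits at 143 to 528 counts (ITGB8) and 166 to 388 (ITGB3), depth limits these more than the others.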
